A study of Mus musculus with 16 samples.

Results

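Neuronal and neural crest genes were followed through the early mouse kidney: 31 genes of the 18193 that the arrays could name, chosen as known markers of neurons, of the sympathoadrenal lineage and of neural crest cells, and found by their gene symbol. All 31 were on the array, through 72 probe sets, and each gene was read from the probe set with the highest mean log2 signal over the 16 arrays. Every array held RNA of mouse embryos at E11.5, the stage of gestation at which the ureteric bud, the epithelial outgrowth that forms the collecting system, has entered the metanephric mesenchyme, the tissue that forms the nephrons. There were 5 arrays of metanephric mesenchyme lacking both Hoxa11 and Hoxd11, laser-captured from 7 µm sections of urogenital ridges (called null captures). Another 4 arrays held wild-type mesenchyme laser-captured from 7 µm sections of kidney rudiments, with 3 to 4 mesenchymes in each sample (wild-type captures). The buds dissected by hand gave 4 arrays, each of 3 to 9 pooled wild-type buds freed with 0.5 mg/ml collagenase, and the mesenchyme dissected by hand gave 3 arrays, each of 1 wild-type mesenchyme treated with the same enzyme. RNA was amplified in 2 rounds before hybridisation. The null captures were collected from a larger piece of tissue than the wild-type captures. How many embryos went into each is a detail the sources do not give. Genotype, dissected piece and pooling cannot be told apart in the comparison of the captures. Nothing in the labels says whether replicates came from separate litters, so p-values measure the spread between these samples.

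Neural crest cells leave the dorsal neural tube and migrate through the embryo, where they form sympathetic neurons, adrenal chromaffin cells, enteric neurons and glia, among other cells. Sympathoadrenal precursors gather beside the dorsal aorta, near the developing urogenital system, switch on Phox2a, Hand2 and the enzymes of catecholamine synthesis, and store their products in granules built with chromogranins. Neurons of every kind share a further set of genes for axonal cytoskeleton, growth cones, RNA-binding proteins and synaptic vesicle release, and several of these are also used outside the nervous system.

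Expression was read as MAS5 signal, a linear summary of the probes of a probe set, which on these files was scaled so that every array had the same 2% trimmed mean of 1500. Differences below are on the log2(signal + 36.3) scale, which understates changes of dim probe sets, and levels of different genes were not compared. The median signal of an array lay between 112.7 and 209.2. Null replicate 1 had the highest median and the lowest median correlation with its own group, 0.844, against 0.898 to 0.905 for the other null captures and 0.941 to 0.947 for the wild-type captures. The probe sets of Hoxa11, a deleted transcription factor gene, read 91.8 to 196.6 in the null captures and 525.5 to 839.6 in the wild-type captures, without overlap. The probe sets of Hoxd11 read 192 to 482.2 in the null captures and 317.8 to 586.8 in the wild-type captures, with overlap, and the sources do not say whether they lie within the deleted part. The tissues dissected by hand carried their defining markers: Calb1, a calcium-binding protein of the bud, read 55388 to 68976 in buds and 123.7 to 171.7 in hand-dissected mesenchyme, while Six2, a transcription factor of nephron progenitors, read 435.2 to 699.5 in buds and 20603 to 23655 in hand-dissected mesenchyme. The captures, labelled mesenchyme, carried these markers less cleanly. Six2 read 1461, 4715, 8465, 609.9 and 1446 in null replicates 1 to 5, against 5184, 6372, 4618 and 2673 in wild-type replicates 1 to 4, all below the hand-dissected mesenchyme and, in null replicate 4, within the range of the buds. Calb1 read 79.4, 5053, 5456, 4044 and 6880 in the null captures, against 9188, 27963, 3731 and 14170 in the wild-type captures, so that every capture but null replicate 1 lay above the hand-dissected mesenchyme. The part of this in the values of the neuronal genes was not tested.

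Promoter windows of 250 bases before to 50 bases after a transcription start, taken from RefSeq (GRCm38.p6), were matched by symbol for 24 of the 31 genes, in 36 windows. The cAMP response element, TGACGTCA, which reads the same on both strands, lay in the windows of Scg2, Chgb, Th and Foxd3, that is 4 of 24 genes, against 2.03% of all genes and 1.79% of all 32851 windows. The first 3 of these make secretory granule proteins or the first enzyme of catecholamine synthesis. Their windows are shown 5′ to 3′ on the gene's strand, with the element in capitals: Scg2 at chr1:79439977-79440276 on the minus strand, with the element 68 to 61 bases before the start, Chgb at chr2:132781392-132781691 on the plus strand, with the element 72 to 65 bases before the start, and Th at chr7:142899946-142900245 on the minus strand, with the element 45 to 38 bases before the start.
Scg2: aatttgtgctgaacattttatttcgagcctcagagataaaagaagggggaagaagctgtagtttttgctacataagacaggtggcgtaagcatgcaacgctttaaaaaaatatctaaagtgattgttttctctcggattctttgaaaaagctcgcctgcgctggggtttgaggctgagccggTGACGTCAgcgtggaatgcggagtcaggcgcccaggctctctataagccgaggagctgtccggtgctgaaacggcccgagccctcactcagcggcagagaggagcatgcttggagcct
Chgb: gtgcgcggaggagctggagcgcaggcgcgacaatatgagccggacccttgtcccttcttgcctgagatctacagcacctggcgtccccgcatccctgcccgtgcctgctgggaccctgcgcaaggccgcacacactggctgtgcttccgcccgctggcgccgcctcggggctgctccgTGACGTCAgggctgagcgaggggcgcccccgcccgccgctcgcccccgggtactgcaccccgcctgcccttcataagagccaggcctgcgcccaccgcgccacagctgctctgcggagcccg
Th: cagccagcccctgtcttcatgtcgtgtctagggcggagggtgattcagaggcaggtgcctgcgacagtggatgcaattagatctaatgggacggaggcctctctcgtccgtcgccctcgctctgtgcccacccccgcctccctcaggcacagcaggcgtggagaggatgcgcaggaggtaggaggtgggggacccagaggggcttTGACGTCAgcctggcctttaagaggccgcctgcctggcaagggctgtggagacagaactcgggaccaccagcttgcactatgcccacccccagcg

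A further window is shown for Ina, the intermediate filament gene with the greatest difference between the captures among those of the 31 tested. It lies at chr19:47014431-47014730 on the plus strand and holds, in capitals, the E-box CAGCTG at 135 to 130 bases before the start. E-boxes are the letters that proneural basic helix-loop-helix proteins read.
Ina: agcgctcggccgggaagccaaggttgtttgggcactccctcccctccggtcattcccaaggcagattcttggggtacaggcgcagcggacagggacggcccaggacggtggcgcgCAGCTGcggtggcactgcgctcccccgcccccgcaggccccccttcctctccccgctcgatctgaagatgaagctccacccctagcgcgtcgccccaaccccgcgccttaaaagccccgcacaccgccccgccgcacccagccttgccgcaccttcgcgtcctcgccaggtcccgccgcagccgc
CAGCTG lay in 11 of the 36 windows, from 8 genes (Elavl2, Elavl3, Elavl4, Ina, Syt1, Chga, Chgb and Isl1), against 16.3% of all windows. The E-box CAGATG, searched on both strands, lay in 7 windows of 4 genes, against 17.2% of all windows, and the general form CANNTG, which includes both, lay in 26 windows, against 72.3%. Both parts of the element read by REST, a repressor of neuronal genes, were searched on both strands: GGACAG lay in 9 windows against 22.2% and TTCAGCACC in 1 (Scg2) against 0.371%. The TATA box, TATAAA on either strand, lay in 5 windows against 13.6%. These matches describe letters in these windows only.

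The level of the 31 genes as a whole, taken as the mean log2(signal + 36.3) on each array, was 10.65, 10.36, 8.97, 10.75 and 8.97 in null replicates 1 to 5, against 8.43, 8.74, 9.08 and 9.76 in wild-type capture replicates 1 to 4. Null replicates 1, 2 and 4 lay above every wild-type capture, and null replicates 3 and 5 lay inside the wild-type range. Null captures averaged 9.94 ± 0.90 (SD, n = 5) and wild-type captures 9.00 ± 0.57 (SD, n = 4), so that the groups overlapped. These are bulk samples, in which more cells of a type and more RNA per cell cannot be told apart. Leaving out Ina, 1 of the 2 genes that passed the test, gave 10.67, 10.36, 8.96, 10.70 and 9.00 in the null captures and 8.47, 8.84, 9.18 and 9.84 in the wild-type captures, with the same arrays above the wild-type range. The tissues dissected by hand were lower and tighter, with 7.90 to 8.24 in buds (mean 8.04 ± 0.15, SD, n = 4) and 8.60 to 8.79 in mesenchyme (mean 8.69 ± 0.10, SD, n = 3). The spread between arrays of a group was therefore wider among the captures than among the tissues dissected by hand.

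**Figure D1:**
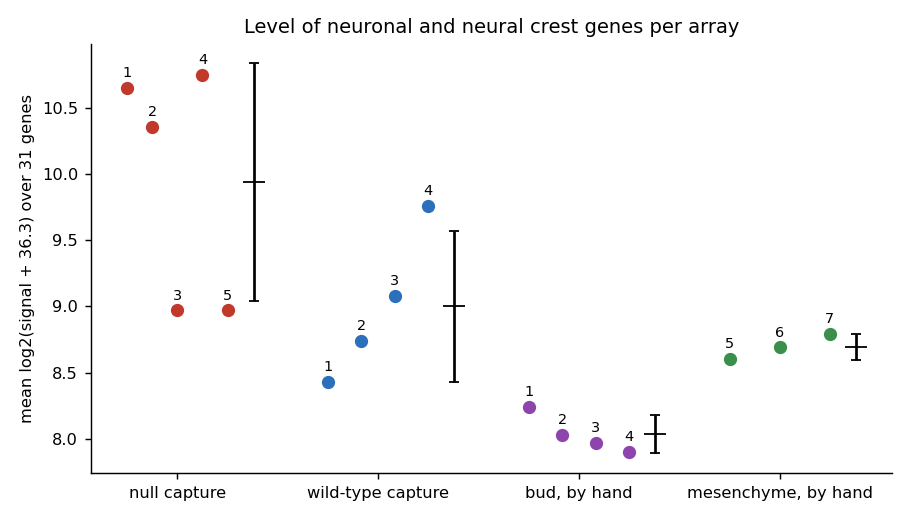
Mean log2(signal + 36.3) over the 31 genes on each of the 16 arrays, with the replicate number above each point and the group's mean ± SD at its right. Null replicates 1, 2 and 4, at 10.36 to 10.75, lie above the highest wild-type capture, at 9.76, and null replicates 3 and 5, both at 8.97, lie among the wild-type captures.

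Gene by gene, the higher values sat on the same arrays. The counts by array that follow were made for the 31 genes only, so no share over all genes stands beside them. Of the 31 genes, 22 in null replicate 1, 18 in null replicate 2 and 22 in null replicate 4 lay above all 4 wild-type captures, against 5 in null replicate 3 and 5 in null replicate 5. Wild-type capture replicate 4 lay above the other 3 wild-type captures in 21 of the 31 genes, while wild-type replicates 1, 2 and 3 did so in 5, 2 and 3 genes. The median difference from the wild-type capture mean was 1.82, 1.36, -0.16, 2.18 and -0.16 in null replicates 1 to 5, against -0.28, -0.23, 0.07 and 0.71 in wild-type replicates 1 to 4. Null replicate 4 held the highest of the 9 capture values for 14 genes, null replicate 2 for 7, null replicate 1 for 5, null replicate 5 for 2 (Chrna3 and Sox10), null replicate 3 for 0, wild-type replicate 4 for 2 (Hand2 and Isl1) and wild-type replicate 1 for 1 (Prph).

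In the fit of null captures against wild-type captures across all probe sets (limma, Benjamini-Hochberg adjustment), 1.76% of the 23387 probe sets tested passed the threshold of 0.05, with 0.59% higher and 1.17% lower in the null captures. Of the 31 genes, 27 passed the filter on dim probe sets, 2 of these were higher in the null captures (Ina and Elavl2), 0 were lower and 25 were not called, while 8 had an unadjusted p under 0.05. The share of all probe sets under that unadjusted threshold was not counted, so counts at an unadjusted p stand without it throughout. Ina and Snap25 passed the filter only through the null captures. Prph, Scg2, Sox10 and Foxd3 were too dim to be tested. The median difference over the 31 genes was 0.95, with 26 of them above 0, beside a median of -0.09 over all 18193 genes, of which 42.7% were above 0. In 3 genes (Elavl2, Ina and Crmp1) all null captures lay above all wild-type captures and in 1 (Prph) all lay below, against 2.68% and 6.14% of probe sets tested. Prph itself was not tested, so it falls outside the set that this share covers.

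**Figure D2:**
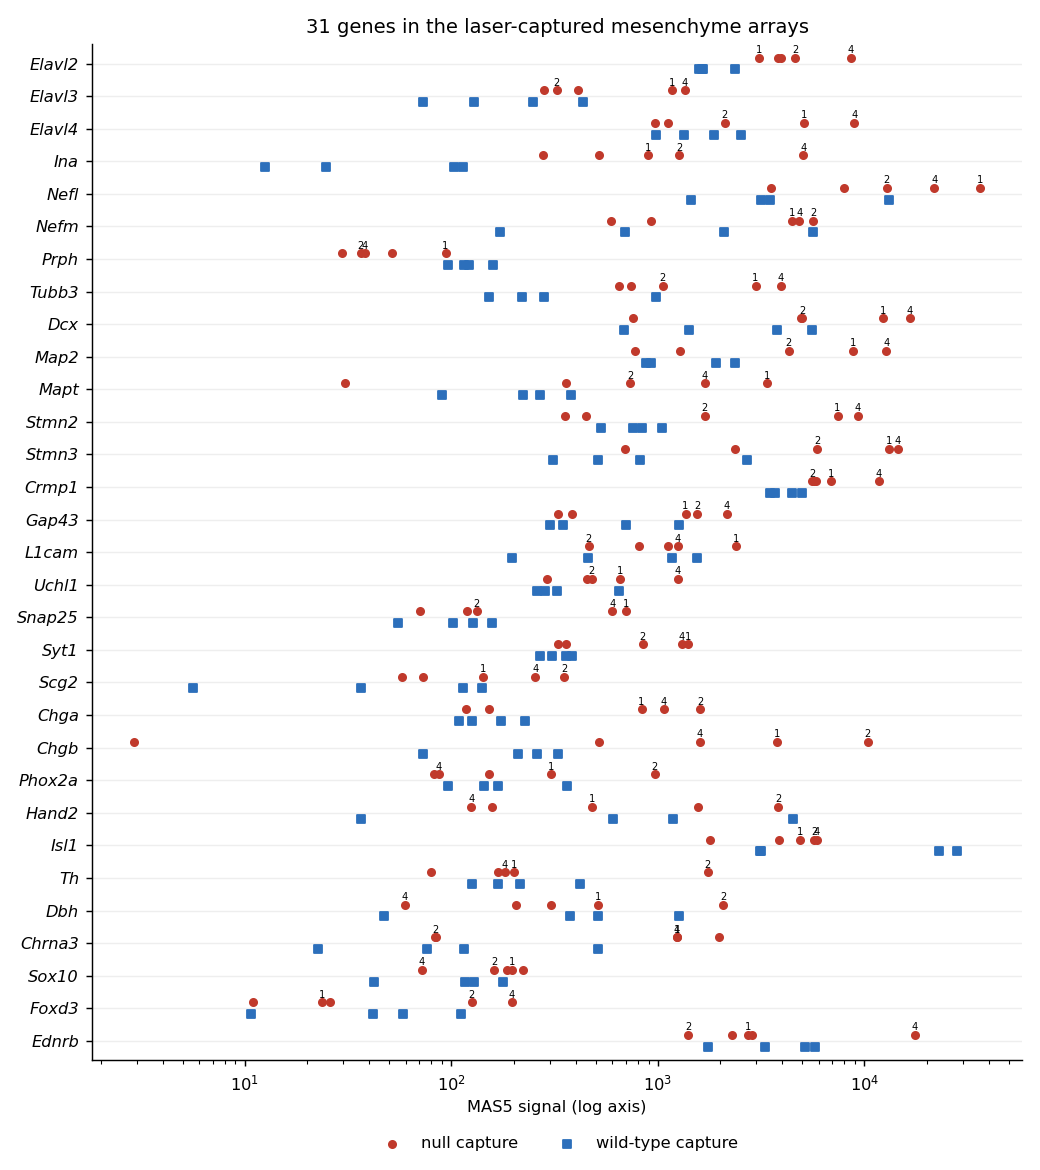
MAS5 signal (log axis) of each of the 31 genes in the 5 null captures (red circles, with replicates 1, 2 and 4 numbered) and the 4 wild-type captures (blue squares). The null captures lie wholly above the wild-type captures for Elavl2, Ina and Crmp1, and for most other genes null replicates 3 and 5 fall among the wild-type values.

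The neuronal RNA-binding proteins of the Hu family, which steady and splice neuronal transcripts, were represented by Elavl2, Elavl3 and Elavl4, and 1 of the 3 passed the test. Elavl2 read 3082, 4631, 3817, 8604 and 3938 in null replicates 1 to 5, against 1649, 1577, 1637 and 2366 in wild-type replicates 1 to 4. In hand-dissected wild-type mesenchyme replicates 5 to 7 it read 3564, 2320 and 2804. The highest of these lay above null replicate 1, and the lowest lay within the wild-type captures, so normal mesenchyme overlapped the null captures. Every null capture lay above every wild-type capture, the means being 4814 ± 2189 (SD, n = 5) and 1807 ± 374 (SD, n = 4), and the log2 difference was 1.32 (SE 0.29, limma adjusted p = 0.0455). The limma adjusted p was 0.0758, 0.0876 and 0.065 without null replicate 3, 2 or 5. It was 0.104 to 0.152 without any single wild-type capture, so the call was lost in each of these fits. Fewer probe sets passed in these fits as well, 60 to 263 against 411 with all arrays. The Elavl2 difference stayed between 1.09 and 1.46 with any 1 array left out. Of the 4 other Elavl2 probe sets, 2 were tested, with differences of 0.67 and 0.94 that did not pass (limma adjusted p = 0.701 and 0.464). Elavl3 read 1173, 323.9, 280, 1352 and 409.1 in the null captures, against 73.1, 247.1, 128.7 and 434.9 in the wild-type captures. Null replicates 1 and 4 stood above all wild-type captures and the other 3 null captures did not (difference 1.46, SE 0.58, adjusted p = 0.206). Elavl4 showed the same 2 null arrays on top, with 5082 and 8918 in null replicates 1 and 4 and 966.8 to 2104 in the other null captures, against 977.8 to 2518 in the wild-type captures (difference 0.68, adjusted p = 0.584).

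Among the 11 cytoskeletal genes 10 were tested and 1, Ina, rose. Ina, which encodes the neuronal intermediate filament alpha-internexin, read 898.2, 1267, 520, 5060 and 276.5 in the null captures, against 113.9, 12.5, 24.7 and 103 in the wild-type captures. All null captures exceeded all wild-type captures, although null replicate 4 was well above the rest, and the log2 difference was 3.51 (SE 0.72, limma adjusted p = 0.0391). The wild-type values were each below their array's median signal. The adjusted p was 0.081 without null replicate 2, 0.058 without null replicate 3 and 0.0822 to 0.133 without any single wild-type capture. A second Ina probe set differed by 3.05 without passing (adjusted p = 0.125).

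The other cytoskeletal genes were not called. Stmn3, a microtubule-destabilising stathmin, read 13178, 5909, 2371, 14466 and 692.6 in the null captures, against 309.8, 512.6, 820.2 and 2704 in the wild-type captures (difference 2.48, SE 0.86, adjusted p = 0.155). Tubb3, the neuronal beta-tubulin, read 2967, 1053, 646.6, 3931 and 737.4 in the null captures, against 152.3, 220, 280.3 and 973.9 in the wild-type captures (difference 2.06, SE 0.63, adjusted p = 0.119). Both were above all wild-type captures in null replicates 1, 2 and 4. Nefl, the light neurofilament subunit, read 36313, 12807, 7974, 21781 and 3522 in the null captures, against 1447, 3163, 3492 and 13148 in the wild-type captures (difference 1.68, SE 0.69, adjusted p = 0.222). Its highest wild-type value, in replicate 4, exceeded that of 3 null captures. Mapt, which encodes the axonal microtubule protein tau, read 3363, 734.2, 30.5, 1688 and 357.5 in the null captures, against 222.4, 89.7, 267.7 and 378.5 in the wild-type captures (difference 1.37, SE 0.94, adjusted p = 0.464). Map2, a dendritic microtubule protein, read 8817, 4301, 776.7, 12780 and 1277 in the null captures, against 878.6, 925, 1900 and 2368 in the wild-type captures (difference 1.30, SE 0.74, adjusted p = 0.375). In both, null replicates 1, 2 and 4 were the 3 highest captures, and null replicate 3 was the lowest of all 9.

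Dcx, the microtubule protein of migrating young neurons, behaved less evenly, with 12298, 4997, 4903, 16601 and 758.1 in the null captures, against 5558, 3779, 1414 and 685.4 in the wild-type captures (difference 1.28, SE 0.83, adjusted p = 0.439). Null replicates 1 and 4 again lay above every wild-type capture, and wild-type replicate 4, high for most genes of the list, was here the lowest of the 9. Stmn2, another stathmin, read 7403 and 9304 in null replicates 1 and 4 and 352.7 to 1683 in the other null captures, against 527.6 to 1043 in the wild-type captures (difference 1.21, adjusted p = 0.492). Crmp1, a collapsin response mediator of axon guidance, had the 5 null captures at 5576 to 11696 above the 4 wild-type captures at 3504 to 4957, with a difference of 0.73 that did not pass (adjusted p = 0.136). Hand-dissected wild-type mesenchyme read 7715, 7315 and 4832 for Crmp1 in replicates 5 to 7. Replicates 5 and 6 thus lay within the null range and replicate 7 within that of the wild-type captures. Nefm, the medium neurofilament subunit, was 591.4 to 5651 in the null captures and 171.8 to 5644 in the wild-type captures, a range that overlapped almost wholly (difference 1.03, adjusted p = 0.593). Prph, the intermediate filament of peripheral neurons, ran the other way, with 29.4 to 93.6 in the null captures and 96 to 159.2 in the wild-type captures. It was below the median of its array in every capture and was not tested.

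The synaptic and secretory genes divided the arrays differently. Null replicates 1 and 4 led for the vesicle fusion genes and null replicate 2 for the granins, the proteins of dense-core secretory granules. Snap25, a membrane SNARE, read 701.8 and 602 in null replicates 1 and 4 and 70.2 to 132.3 in the other null captures, against 55.2 to 157.9 in the wild-type captures (difference 0.91, adjusted p = 0.458). Syt1, the calcium sensor of vesicle release, read 1396, 841.7, 359, 1302 and 327.8 in the null captures, against 268.1 to 385.5 in the wild-type captures (difference 1.05, SE 0.46, adjusted p = 0.246). Chgb, chromogranin B, read 3781, 10370, 516.8, 1592 and 2.9 in the null captures, against 73.2, 210.1, 258.7 and 329.4 in the wild-type captures. On the log2 scale it covered the widest range of the 31 genes within the null captures, 4 of which lay above every wild-type capture while replicate 5 lay below them all (difference 2.20, SE 1.28, adjusted p = 0.382). Chga, chromogranin A, read 832.4, 1601, 152.2, 1067 and 117.3 in the null captures, against 126.2, 108.8, 227.3 and 174.6 in the wild-type captures (difference 1.50, SE 0.69, adjusted p = 0.271). Scg2, the third granin, was dim, with its highest value, 350.9, in null replicate 2 and 57.3 to 254.7 in the other null captures, against 5.6 to 141.3 in the wild-type captures. Of these 5 genes 4 were tested and 0 passed in limma, with 1 at an unadjusted p under 0.05.

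Of the 6 autonomic genes, Th, Dbh and Phox2a were highest in null replicate 2 and Hand2, Isl1 and Chrna3 in other arrays, and the values by array are given because they stood apart when they were examined. Th, tyrosine hydroxylase, the rate-limiting enzyme of catecholamine synthesis, read 200.8, 1744, 167.7, 181.4 and 80 in the null captures, against 168.7, 125.2, 215.6 and 421 in the wild-type captures. Dbh, which turns dopamine into noradrenaline, read 513.6, 2065, 302.5, 59.3 and 204.6 in the null captures, against 46.9, 374.1, 511.6 and 1267 in the wild-type captures. Phox2a, a homeodomain factor that sets the noradrenergic fate, read 303.3, 966.5, 152.2, 86.7 and 82 in the null captures, against 143.5, 168.8, 96.6 and 362.3 in the wild-type captures. All 3 were highest in null replicate 2 and next highest in wild-type replicate 4, and null replicate 4, which led for the cytoskeletal genes, was at or under the median of the wild-type captures. Their differences between the groups were 0.24, -0.02 and 0.24, with limma adjusted p of 0.884, 0.994 and 0.873. Hand2, a helix-loop-helix factor of sympathetic precursors that also serves in limb and heart mesenchyme, read 477.6, 3813, 156.8, 124.8 and 1570 in the null captures, against 36.6, 605.6, 1176 and 4492 in the wild-type captures. Its difference of -0.18 turned positive, to 0.71, without wild-type replicate 4 (adjusted p = 0.951 with all arrays). Isl1, a LIM-homeodomain factor of motor, sensory and sympathetic neurons that other embryonic tissues also use, read 4853, 5715, 1796, 5872 and 3859 in the null captures, against 3117, 3154, 22918 and 28031 in the wild-type captures (difference -1.12, SE 0.67, adjusted p = 0.396). Wild-type replicates 3 and 4 exceeded every null capture. Chrna3, the ganglionic nicotinic receptor subunit, was set apart by null replicates 1, 4 and 5: it read 1236, 83.9, 83.5, 1237 and 1976 in the null captures, against 115.3, 22.7, 76.3 and 511.1 in the wild-type captures (difference 1.82, SE 0.96, adjusted p = 0.335). Of the 6 genes of this role, 0 passed in limma, and 0 had an unadjusted p under 0.05.

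The growth cone and adhesion genes were not called and overlapped between the groups. Gap43, a growth cone phosphoprotein, read 329.3 to 2150 in the null captures and 301.3 to 1270 in the wild-type captures (difference 0.66, adjusted p = 0.595). L1cam, an axonal adhesion molecule, read 462 to 2384 in the null captures and 195.4 to 1540 in the wild-type captures (difference 0.66, adjusted p = 0.584). Uchl1, an abundant neuronal ubiquitin hydrolase, read 289.9 to 1246 in the null captures and 260 to 648.1 in the wild-type captures (difference 0.60, adjusted p = 0.491). Of the neural crest genes, Sox10, the factor of crest cells and their glia, read 72 to 222.6 in the null captures and 42.1 to 178.5 in the wild-type captures, and Foxd3, an early crest factor, 11 to 196.4 in the null captures and 10.7 to 111.2 in the wild-type captures, and neither was bright enough to be tested. Ednrb, the endothelin receptor of crest cells and of other cells, read 17546 in null replicate 4 and 1403 to 2862 in the other null captures, against 1754 to 5756 in the wild-type captures (difference -0.10, adjusted p = 0.950).

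The 20 genes with more than 1 probe set had 41 further probe sets, of which 19 were tested in the comparison of the captures. In limma 15 of the 19 were higher in the null captures and 0 passed.

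Summed by role, the cytoskeletal genes were at 2.57, 1.57, 0.27, 2.80 and -0.04 relative to the wild-type capture mean in null replicates 1 to 5, against -0.39, -0.33, -0.03 and 0.76 in wild-type replicates 1 to 4. The synaptic and secretory genes gave 2.30, 2.43, 0.30, 2.20 and -0.62 in the null captures, against -0.47 to 0.31 in the wild-type captures. The autonomic genes gave 0.47, 1.49, -0.87, -0.45 and 0.17 in the null captures, against -1.26, -0.61, 0.25 and 1.61 in the wild-type captures. The highest array for the autonomic genes was thus a wild-type capture, while the 3 highest for the cytoskeletal and synaptic genes were null captures. These are mean log2 differences over the genes of a role, and no test was made over a role.

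Other genes of the same systems were counted from lists of markers. Of 32 further pan-neuronal genes 22 were tested and 0 were called in limma, with 5 at an unadjusted p under 0.05 and a median difference of 0.23. Their level relative to the wild-type capture mean was 1.15 and 1.14 in null replicates 1 and 4, 0.34 in null replicate 2 and -0.28 and -0.24 in null replicates 3 and 5, against -0.09 to 0.05 in the wild-type captures. One of them, the stathmin Stmn4, read 1156, 272.1, 23.4, 1127 and 133.6 in the null captures, against 16.1 to 20.1 in the wild-type captures. Vamp2 ran the other way, with 304.5 to 480.8 in the null captures and 524.3 to 838.1 in the wild-type captures (difference -0.78, limma adjusted p = 0.178). Differences were above 0 in 19 of the 32 genes. Of 13 further sympathetic and adrenergic genes 11 were tested and 0 called, with 3 at an unadjusted p under 0.05 and a median of -0.26. The level of that list relative to the wild-type capture mean was -0.31, 0.13, -0.58, -0.16 and -0.28 in null replicates 1 to 5, against -0.32, -0.35, 0.24 and 0.43 in wild-type replicates 1 to 4, so null replicate 2 lay below wild-type replicates 3 and 4. Gata2, Ntrk2 and Ntrk3 were lower in null replicate 2 than in every wild-type capture. Within that list the vesicular monoamine transporters, which load catecholamines into granules, were highest in null replicate 2: Slc18a1 read 2452 there, 186.8 to 376.2 in the other null captures and 169.5 to 391.9 in the wild-type captures, and Slc18a2 read 1134 there, 7.3 to 240.2 in the other null captures and 53.4 to 181.6 in the wild-type captures. Of 10 further neural crest genes 10 were tested and 0 called (2 at an unadjusted p under 0.05, median 0.18), and of 7 Schwann cell and glial genes 4 were tested and 0 called (1 at an unadjusted p under 0.05, median 0.13). Stmn4, Vamp2, Slc18a1, Slc18a2, Gata2, Ntrk2 and Ntrk3 were picked out after their values were seen.

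Markers of other cell types were also high on some of these arrays. The 12 neural tube progenitor genes, of which 6 were tested and 0 passed in limma (4 at an unadjusted p under 0.05), stood 1.56, 0.17, 0.34, 3.47 and 2.30 above the wild-type capture mean in null replicates 1 to 5, against -0.17 to 0.16 in the wild-type captures. Neurog2, a proneural factor of dividing precursors that lies upstream of neuronal differentiation, read 588.6, 167.5, 105.2, 8802 and 2145 in the null captures, against 1.7 to 54.4 in the wild-type captures, and Neurog1, its close relative, read 385, 232.7, 3.3, 8279 and 1546 in the null captures, against 3.6 to 102.5 in the wild-type captures. Null replicate 5, whose level over the 31 genes lay within the wild-type range, was thus among the 2 highest arrays for both proneural factors. The 7 muscle and somite genes (3 tested, 0 called, 1 at an unadjusted p under 0.05) were at 1.69, 1.33, 0.31, 3.13 and -0.31 relative to the wild-type mean in the null captures, against -0.08 to 0.09 in the wild-type captures. Myog, the myogenic factor of differentiating muscle, read 11900 in null replicate 4 and 89.8 to 679 in the other null captures, against 12.6 to 93.9 in the wild-type captures. The 10 nephron progenitor genes (9 tested, 0 called, 0 at an unadjusted p under 0.05) ran at -0.65, 0.09, 0.18, -1.32 and -0.89 in the null captures, against -0.53 to 0.51 in the wild-type captures, with null replicate 4 lowest. The part of these cell types in the levels of the neuronal genes was not tested. The 3′ to 5′ signal ratio of control probe sets is a sign of RNA quality and amplification. For Gapdh it was 26.3, 19.8, 23.5, 18.4 and 24.5 in null replicates 1 to 5, against 14.3 to 22.9 in the wild-type captures. For Actb it was 17.54, 18.9, 27.6, 21.2 and 18.54 in the null captures, against 14.79 to 20.85 in the wild-type captures. The part of RNA quality in the levels of the neuronal genes was not tested.

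**Figure D3:**
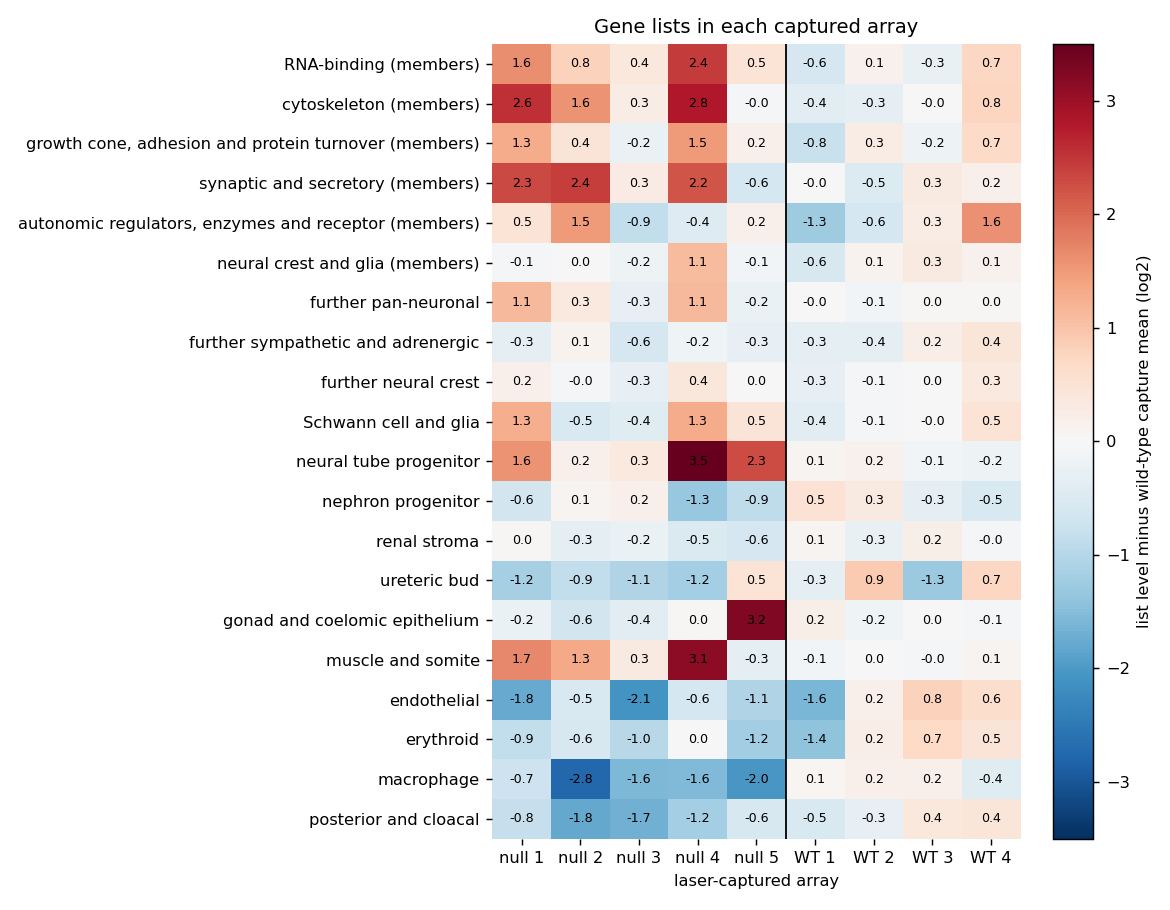
Level of each gene list (rows; mean log2 over its genes on the array) in every captured array (columns), as the difference from the mean of the wild-type captures, in log2 units, written in each cell. Null replicates 1, 2 and 4 are raised for the cytoskeletal list by 1.57 to 2.80, null replicate 4 also for the neural tube progenitor list by 3.47 and the muscle and somite list by 3.13, and null replicate 5 for the gonad and coelomic epithelium list by 3.25.

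The second comparison set buds against mesenchyme, both dissected by hand, and asked which of the genes mark either normal tissue. The bud was higher for a small set led by L1cam and Uchl1, and the mesenchyme for most of the neurofilament, stathmin and RNA-binding genes. In this fit 23.9% of the 23851 probe sets tested passed, with 12.4% higher in buds and the other 2749 probe sets lower. Of the 31 genes 23 were tested, 6 were higher in buds, 11 were lower and 6 were not called. Tubb3 and Phox2a passed the filter only through the buds, and Stmn2 and Hand2 only through the mesenchymes. Ina, Prph, Snap25, Scg2, Chga, Th, Chrna3 and Foxd3 were too dim to be tested in these tissues. The median difference over the 31 genes was -0.64, beside -0.06 over all genes. The buds are pooled and the mesenchymes single, so tissue and pooling cannot be told apart. The Gapdh 3′ to 5′ ratio was 6.53 to 12.23 in buds, against 69.33, 22.09 and 36.18 in mesenchyme replicates 5 to 7, without overlap. For Actb it was 10.92 to 16.25 in buds, against 17.87, 11.08 and 12.42 in mesenchyme, with overlap. The part of RNA quality in the differences between buds and mesenchyme was not tested. In 6 genes all buds lay above all mesenchymes and in 15 all lay below, against 16.2% and 15.9% of probe sets tested. The 15 include Snap25 and Th, which were not tested and so fall outside the set that this share covers.

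L1cam read 4659, 11282, 8711 and 6566 in bud replicates 1 to 4, against 306.1, 289.2 and 248.5 in mesenchyme replicates 5 to 7. Its mean was 27.8-fold higher in buds, at 7804 ± 2848 (SD, n = 4) against 281 ± 29.6 (SD, n = 3), and the log2 difference was 4.56 (SE 0.29, limma adjusted p = 4.3e-07). Uchl1 read 736.7, 1484, 1170 and 1394 in buds, against 98.1, 155.5 and 136.1 in mesenchyme (difference 2.86, SE 0.28, adjusted p = 1.46e-05). The buds were clear of the mesenchymes for both. All 3 genes of the growth cone, adhesion and protein turnover role rose, since Gap43 also averaged 1090 in buds and 355 in mesenchyme (difference 1.57, adjusted p = 0.00501). Ednrb averaged 12459 ± 3600 (SD, n = 4) in buds and 3473 ± 1665 (SD, n = 3) in mesenchyme (difference 1.89, adjusted p = 0.000787). Tubb3 averaged 404 in buds and 85.6 in mesenchyme (difference 1.78, adjusted p = 0.00228). Phox2a averaged 257 in buds and 100 in mesenchyme (difference 1.12, adjusted p = 0.0122). From the list of Schwann cell and glial genes, Erbb3 and Mbp were higher in buds as well. From the further sympathetic and adrenergic list, Gata3 was higher in buds, and Insm1, Ntrk2 and Gfra3 were lower.

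Isl1 read 981.8, 102.1, 80.7 and 69.7 in buds, against 19099, 9061 and 4318 in mesenchyme (difference -5.48, SE 0.72, limma adjusted p = 0.000161). Nefl read 162.7, 71.9, 92 and 99.4 in buds, against 4288, 1682 and 1406 in mesenchyme (difference -3.99, SE 0.37, adjusted p = 9.88e-06). Hand2 read 4.3 to 10.7 in buds, under the offset added before taking logs, against 342.7 to 445.1 in mesenchyme (difference -3.32, adjusted p = 6.72e-06). Hand2 lay below the median signal of the array in every bud, and Nefl and Isl1 did so in every bud but replicate 1. All 3 genes lay above that median in every mesenchyme. Crmp1 averaged 630 in buds and 6621 in mesenchyme (difference -3.31, adjusted p = 1.64e-06). Nefm, Dcx, Elavl4, Stmn2 and Elavl2 were lower in buds by log2 differences of -3.01, -2.39, -2.32, -1.98 and -1.28, with adjusted p between 4.22e-05 and 0.00209. Map2 and Stmn3 were lower by -1.02 and -1.01 (adjusted p = 0.0164 and 0.0177). These were the least firm calls: Map2 missed the threshold without mesenchyme replicate 5, and Stmn3 without bud replicate 3 and without mesenchyme replicate 6 or 7.

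The 6 genes tested and not called were Elavl3 (0.52), Syt1 (0.05), Sox10 (-0.03), Chgb (-0.64), Mapt (-0.87, adjusted p = 0.0611) and Dbh (-1.13, adjusted p = 0.0642), each given as the log2 difference between buds and mesenchyme. Of the further pan-neuronal genes 20 were tested, 4 higher and 6 lower in buds. Of the further sympathetic and adrenergic genes 10 were tested, 1 higher and 3 lower, and of the further neural crest genes 8 were tested, 2 higher and 4 lower. Of the Schwann cell and glial genes 3 were tested, with 2 higher, and of the neural tube progenitor genes 3 were tested, with 0 called in limma and 0 at an unadjusted p under 0.05.

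**Figure D4:**
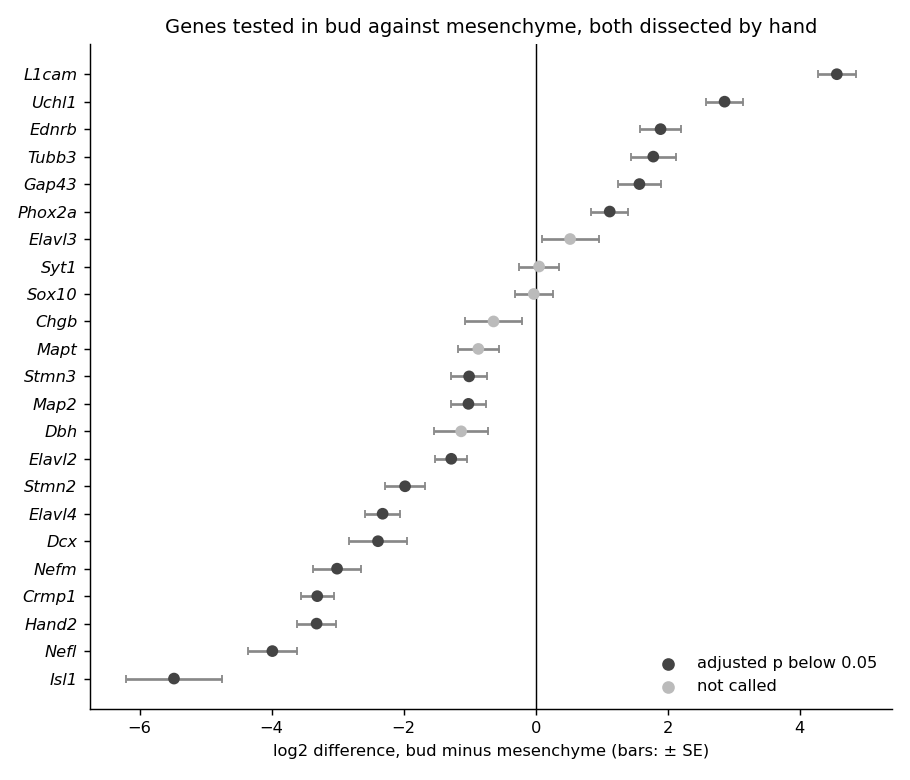
Log2 difference, bud minus mesenchyme, with ± SE bars, for the 23 genes tested in the tissues dissected by hand (4 bud and 3 mesenchyme arrays), dark where the adjusted p was below 0.05. L1cam at 4.56 and Uchl1 at 2.86 lie at the bud end, and Isl1 at -5.48 and Nefl at -3.99 at the mesenchyme end.

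The third comparison set wild-type captures against hand-dissected mesenchyme, both labelled wild-type mesenchyme but collected in different ways. Pooling differed along with collection, as did the markers of bud and other cells given below, and these effects cannot be told apart. This comparison shares its arrays with the others. In this fit 24.8% of 23612 probe sets passed, with 16.3% higher and 8.51% lower in the captures. Of the 31 genes 22 were tested, 2 were higher in the captures (Tubb3 and Uchl1), 1 was lower (Crmp1) and 19 were not called. The median difference was 0.35, beside 0.03 over all genes, and it was 0.02 without wild-type capture replicate 4. Tubb3 averaged 407 in the captures and 85.6 in hand-dissected mesenchyme (difference 1.55, SE 0.52, limma adjusted p = 0.0486) and passed the filter only through the captures. Uchl1 averaged 379 in the captures and 130 in hand-dissected mesenchyme (difference 1.25, SE 0.36, adjusted p = 0.0285). Crmp1 averaged 4155 in the captures and 6621 in hand-dissected mesenchyme (difference -0.65, SE 0.21, adjusted p = 0.0440). All 3 lay near the threshold, and each was lost in at least 8 alternatives. Tubb3 and Uchl1 were also higher in buds than in mesenchyme. Of the other genes higher in buds, L1cam, Gap43 and Ednrb were not called here (differences 1.11, 0.7 and 0.16, limma adjusted p = 0.161, 0.31 and 0.798). Phox2a was not tested. Of the marker genes tested, 8 of 9 bud genes, 4 of 5 erythroid genes and 3 of 6 macrophage genes were higher in the captures. Calb1 read 3731 to 27963 in the wild-type captures against 123.7 to 171.7 in hand-dissected mesenchyme. The part of bud tissue or of other cell types in these values was not tested.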

How the data were processed

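Gene expression was measured on 16 Affymetrix MOE430_v2 arrays, and groups and replicate numbers were taken from the labels. The deposited values were linear signal intensities made by the authors with MAS5, per the submitters' processing notes. No version of that software and none of its detection calls were found in the sources. On each array the 2% trimmed mean of the deposited values was 1500.

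From the 45101 probe sets, 64 controls were left out. The platform annotation gave 34945 probe sets 1 symbol, 932 several and 9160 none, and genes were named only from the first kind. The 31 genes and all marker lists were chosen with earlier results of these data known, so no p-value was computed over a list. Values in every array were given for genes that passed the test between captures and for the 12 with the greatest absolute difference there, and any further gene given by array was chosen after its values were seen.

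Signals were taken to log2(signal + 36.3), the offset being the 25th percentile of all values. A probe set was tested if its signal exceeded the median of the array on a number of arrays no lower than the size of the smaller group. Each comparison was fitted on its own groups with limma 3.58.1 (lmFit, eBayes with trend; R 4.3.3), with Benjamini-Hochberg adjustment over all probe sets tested and a threshold of 0.05. The fit was tested on simulated data. Tables were made with Python 3.11.15 and pandas 2.3.3. Alternatives covered the offset, scaling, filter, array weights, probe set choice, model, replicate block and each array left out. No batch was tested, since the sources name no slide, scan date or litter, and the number of arrays limits the precision.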

Additional observations from a re-analysis of the deposited data

Results flagged for a closer look

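Values that stood far from the other arrays of their group were found in 7 of the 96 gene and group combinations tested, and chance alone gives about 1 in 20. Among the null captures, replicate 4 stood above the rest for Crmp1, at 11696, and for Ednrb, at 17546, and replicate 2 stood above the rest for Th, at 1744. Among the wild-type captures, replicate 4 stood above the rest for Elavl2, at 2366. Among the buds, replicate 1 stood above the rest for Isl1, at 981.8, and replicate 3 stood above the rest for Chrna3, at 44.4, and below the rest for Dbh, at 44.6.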

How the results depend on the processing

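In the captures, 2 of the 31 genes (members of the list) were called, and the number was 1 with the offset at the 10th percentile (Ina), the offset at the 50th percentile (Elavl2), medians centred (Ina), no filter (Ina) and a stricter filter (Elavl2), 4 in a model of all 16 arrays (Tubb3 and Stmn3 added) and 0 with the median over a gene's probe sets (6 at an unadjusted p under 0.05 in limma). Leaving out 1 array gave 0 to 2, and 0 in 6 of 9 cases, with 5 to 13 genes at an unadjusted p under 0.05. Elavl2 passed in 9 of 21 alternatives and Ina in 12 of 20. The probe sets called numbered 411, and 53 to 1809 over the alternatives. The replicate numbers of null and wild-type captures did not pair the samples (correlations of same-numbered arrays -0.047 to 0.074), and a fit with the replicate number as a block called 1 of the 31 genes (Ina) and 53 probe sets. The median difference of 0.95 stayed between 0.63 and 1.25. Centring moved the median over all genes to 0.22. Null replicates 1, 2 and 4 lay above the wild-type captures in all 8 alternatives run for the level of the list. Signs turned only in 4 uncalled genes: Hand2 was 0.12 with medians centred and 0.12 with cyclic loess (-1.27 to 0.71 without 1 array), Dbh 0.00 with the lower offset, 0.01 with a floor, 0.24 with quantile scaling, 0.28 centred, 0.27 with loess and 0.15 with the replicate block (-0.77 to 0.55), Ednrb 0.20 centred, 0.04 with the block and 0.13 with probe set medians (-0.69 to 0.22), and Th -0.41 to 0.57 without 1 array. In buds against mesenchyme, 17 called became 9 with the stricter filter and 10 with all 16 arrays, and 16 to 18 without 1 array, while the median of -0.64 became -0.76 and -0.35 with the lower and higher offset, -0.50 centred and -0.38 with probe set medians, and -0.72 to -0.49 without 1 array. In wild-type captures against hand-dissected mesenchyme, 3 called became 1 with quantile scaling (Elavl2), 1 with the stricter filter, 1 with probe set medians, 0 with no filter and 0 with all 16 arrays, and 0 to 4 without 1 array. Where this comparison gave 0, 3 to 5 genes had an unadjusted p under 0.05 in limma. The causes were not tested. Buds and mesenchyme, and captures and hand-dissected mesenchyme, share no replicate numbers or too few for a block.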

Other observations

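The 6 macrophage genes tested had lower mean levels in the null captures. Tyrobp, a signalling adaptor of myeloid cells, read 708.4, 75.9, 519.5, 226.5 and 288.5 in the null captures, against 1449, 2104, 1828 and 1104 in the wild-type captures, and was lower in the null captures (difference -2.28, SE 0.50, limma adjusted p = 0.047). It was the 1 gene called among the 6 macrophage genes tested, 5 of which had an unadjusted p under 0.05, and the median difference of the list was -1.63.

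Of the 9 gonad and coelomic epithelium genes 3 were tested between the captures, with 0 called and 0 at an unadjusted p under 0.05 in limma. Null replicate 5, 1 of the 2 null captures inside the wild-type range for the neuronal genes, was the highest capture for each of them except Star and Cyp11a1. Emx2 was nearly as high in null replicate 4, at 4026 in null replicate 5 and 3955 in null replicate 4. It was also a gene of the bud in these samples, with 15082 to 16498 in buds against 140.7 to 472.6 in hand-dissected mesenchyme. Star read 272.7 in null replicate 5, 143.1 to 485.4 in the other null captures and 244.6 to 404 in the wild-type captures, and Cyp11a1 read 188.4 in null replicate 5, 58.1 to 360.2 in the other null captures and 47.2 to 223.4 in the wild-type captures. Nr5a1, the steroidogenic factor of the early gonad, read 3089 there, 17.4 to 26.7 in the other null captures and 22.2 to 33.7 in the wild-type captures, and Amhr2, the receptor for anti-Müllerian hormone, read 12360 there, 10.4 to 112.3 in the other null captures and 21.8 to 428.1 in the wild-type captures. These genes were singled out after their values were seen.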
